A study of Homo sapiens with 68 samples.

Results

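After immunoprecipitation of hnRNP C, the 75-100 kDa region of the gel, which the labels class as background, was sequenced in 2 libraries named Background_75-100kDa. The reference is the pair of libraries from the hnRNP C band itself, named hnRNPc_10k. Members are all peaks listed for the gel region, chosen by library name alone: 6716 in replicate 1 and 4875 in replicate 2, together 11591 of the 15800601 peaks listed for the 68 libraries of the series. All 4 libraries compared were made from the human embryonic kidney line HEK293T. They share 10000 cells per library, 0.001 U of RNase, ultraviolet crosslinking per the protocol text and the same antibody against hnRNP C. The labels name no genotype change or drug. They do not say whether replicates were separate cultures, so the spread between them may be technical. Which proteins carried the RNA of this region is not recorded in the lists.

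hnRNP C is an abundant nuclear protein that packages newly made transcripts and binds runs of uridine, many of them within introns. In CLIP, ultraviolet light fixes a protein to the RNA it touches, the protein is pulled down, and its complexes are separated by size before the RNA is read. Cutting a region where the target protein is not expected to run is meant to give a view of the RNA that comes along without it. Whether the target was absent from the region studied here is not recorded. TLC-CLIP is a form of this method made for small cell numbers.

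The gel region lists were short, and most of their reads lay at 1 position of chromosome 15. The hnRNPc_10k libraries listed 264496 and 267111 peaks. The mean was 5796 ± 1302 peaks (SD, n = 2) for the gel region and 265804 ± 1849 (SD, n = 2) for the band, a log2 difference of -5.54. The gel region peaks lay in 2986 and 2226 genes, against 12635 and 12615 genes for the band. The 2 groups did not overlap in peak number, but 2 libraries against 2 cannot give an exact two-sided permutation p below 0.333, which is the p obtained. The same holds for every difference between these groups, so none could pass 0.05. The number of reads sequenced per library is not given, so a shorter list cannot be told apart from a shallower library. A position without a listed peak is one where the caller listed none, not one shown to lack reads.

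The strongest position is a stretch of 16 nt at chr15:87435269-87435284 on the plus strand (hg19), in the gene listed as ENSG00000166748. Its read number was 58805 in replicate 1 and 73432 in replicate 2. A position here means neighbouring peaks of 1 gene and strand, less than 30 nt apart, joined together, with the highest read number of its peaks. That read number is the last number in the deposited peak name, whose meaning is not stated. Summed over positions, the lists held 96460 and 99177 reads, so this position took 61.0% and 74.0% of them. The caller had cut it into 4 peaks in replicate 1 and 5 in replicate 2, each of 2 to 7 nt and each carrying the full read number. The position had 147 and 247 times the reads of the second strongest. No other peak of the same gene was listed in the gel region, and the hnRNPc_10k libraries listed 0 peaks of that gene.

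The same position was listed in 12 of the 68 libraries, which form 6 groups, and was missing from 56. Apart from the gel region, its largest read numbers were 21908 and 27501 in RBFOX2_10k, the libraries of another RNA-binding protein, the splicing regulator RBFOX2, from the same number of cells. There it was the third strongest position in both replicates, with 1.15% and 1.19% of listed reads. The hnRNPc_1k libraries, made with the hnRNP C antibody from fewer cells and with less RNase, listed it at 94 and 96 reads. RBFOX2_1k, also from fewer cells and with less RNase, listed it at 154 and 122. Of the neighbouring gel regions, Background_100-150kDa listed it at 171 and 140 reads and Background_50-75kDa at 10 and 22, while Background_150-250kDa did not list it. The 2 high pairs are thus from different antibodies, and the hnRNP C band has no peak there. The 10k, 1k and gel region libraries lie in 1 run of accessions, and whether they also shared a preparation or a sequencing run is not stated.

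Without the strongest position, the gel region held 37655 and 25745 listed reads. The 10 strongest remaining positions took 6.56% and 7.51% of them, against 2.19% and 2.14% for the 10 strongest of the band. Over the whole lists, with the strongest position included, most gel region peaks were at or next to the lowest read number listed. Of gel region peaks, 76.6% and 79.1% had 5 or 6 reads, against 27.7% and 27.8% of band peaks. The median read number was 5 in both gel region libraries and 8 in both band libraries. Peaks of 20 or more reads, those of the strongest position included, numbered 227 and 185 in the gel region, at 159 and 131 positions. In the plot of width against reads, the strongest position stands alone above a dense floor of weak ones.

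**Figure D1:**
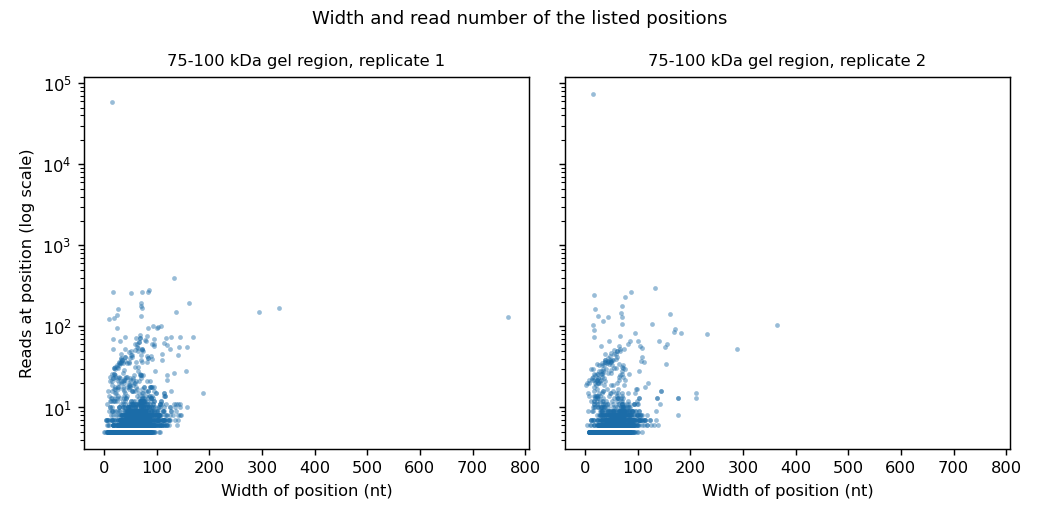
Width of each listed position in nt against its read number on a log scale, with 1 panel per gel region library and 1 point per position. The strongest position lies at 58805 and 73432 reads, while the second strongest has 399 and 297.

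Gel region peaks were also narrow, but only as single peaks. Their median width was 42 and 36 nt, against 55 nt in both band libraries, a difference of -16 nt with no overlap between groups (exact permutation p = 0.333). Peaks under 20 nt made up 30.5% and 34.3% of the gel region lists and 5.53% and 5.51% of the band lists. The caller split positions more often in the gel region, with 1.41 and 1.48 peaks per position against 1.04 in both band libraries. Once joined, positions had a median width of 58 and 55 nt in the gel region and 55 and 56 nt in the band, so the difference turned to 1 nt (exact permutation p = 1). Among peaks of 5 or 6 reads alone, the median width was 39 and 34 nt in the gel region and 43 nt in both band libraries. The splitting was present there too, with 1.45 and 1.52 peaks per position against 1.00. The width gap was thus present between single peaks and absent between joined positions.

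The replicates shared few peaks in all, and most of the strong ones. Replicate 2 overlapped 4.23% of the peaks of replicate 1 by at least 1 nt on the same strand, and replicate 1 overlapped 5.87% of those of replicate 2. When the peaks were moved by 1000 nt, these values were 1.06% and 1.33%. The moved value is the overlap that lists so dense give to a nearby place on the same strand. For peaks of 5 reads the overlap was 0.394% and 0.480%. For peaks of 20 or more reads it was 73.1% and 80.5%, against 20.7% and 24.3% after moving. The weak peaks of the gel region were thus almost all listed in 1 library only. The 2 band lists overlapped each other by 43.1% and 42.6%. Joined over both gel region libraries there were 7824 positions, of which 222 (2.84%) were listed in both.

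Overlap with the hnRNP C band rose with read number in the same manner. Of all gel region peaks, 25.1% ± 0.104 (SD, n = 2) were overlapped by a peak of either band library, against 15.2% and 14.2% after moving. At 5 reads, 15.6% and 16.7% were overlapped, against 11.3% and 9.90% after moving. The gap between peaks in place and moved peaks was thus a few percentage points at the lowest read number. At 10 to 19 reads the overlap was 68.2% and 64.8%, against 26.9% and 26.1%. At 20 or more reads it was 71.4% and 67.0%, against 38.8% and 37.3%. Peaks found in both gel region replicates lay in the band more often (69.0% and 66.8%) than the other peaks (23.3% and 22.4%), but they were mostly strong ones. At 20 or more reads the values were 73.5% against 65.6% in replicate 1 and 66.4% against 69.4% in replicate 2, so at that read number the direction differed between replicates. Peaks in the band were wider, at a median of 54 and 50 nt, than those outside it, at 37 and 31 nt.

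**Figure D2:**
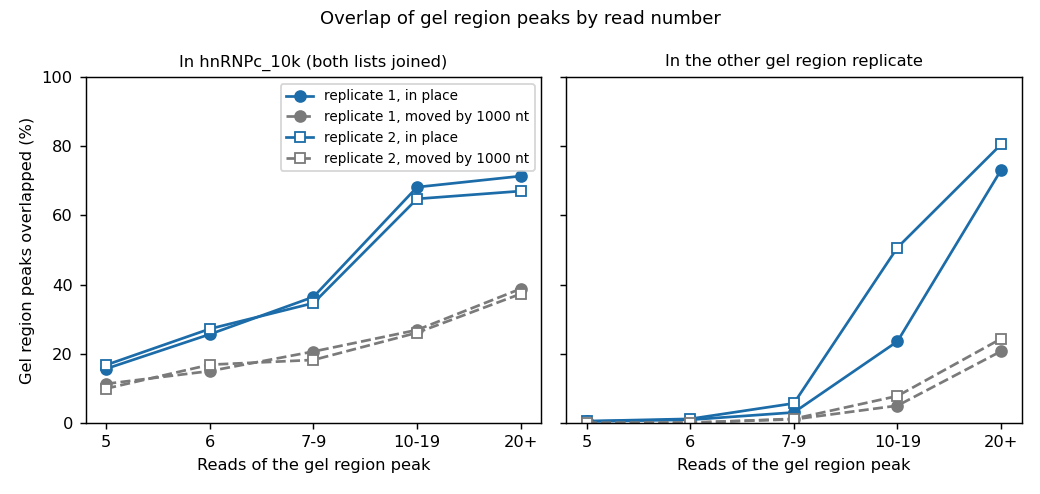
Percent of gel region peaks overlapped, by the read number of the peak, for the 2 gel region replicates in place (blue) and moved by 1000 nt (grey, dashed). At 5 reads the overlap with hnRNPc_10k is 15.6% and 16.7% and at 20 or more reads 71.4% and 67.0%; overlap with the other replicate runs from 0.394% and 0.480% to 73.1% and 80.5%.

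In the reverse direction the gel region covered little of the band. A peak of the gel region overlapped 0.828% and 0.787% of hnRNPc_10k peaks, against 0.406% and 0.416% after moving. Those that were overlapped had a median of 26 and 23 reads, against 8 in each whole band list. Their median place in the band's order of reads was the 95.3 and 94.2 percentile. Of the band's 100 strongest positions, each with at least 350 reads, 64 were listed in gel region replicate 1, 65 in replicate 2, 54 in both and 25 in neither. These 100 positions held 4.75% and 4.66% of band reads, and 13.0% and 14.5% of gel region reads without the strongest position.

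Positions listed in both gel region libraries were the firmest members. Counting 1 per location, there were 202, of which 133 were listed in both band libraries, 16 in 1 of them and 53 in neither. At 50 or more reads in the weaker gel region library, 28 of 36 were in both band libraries and 8 in neither. At exactly 5 reads, 9 of 20 were in both and 6 in neither. Positions in the band had a median width of 93 nt, and positions outside it 31 nt. At 50 or more reads these medians were 97 and 17.5 nt, so the strong positions outside the band were shorter than those inside it.

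The share of listed reads, with the strongest position left out, was higher in both gel region libraries at all 133 of the positions listed in all 4 libraries. Each had to reach at least 5 reads in both gel region libraries to be counted, a large share of such short lists. This choice favours that direction, so the count is no result about these positions. Over all 395381 positions joined from the 4 libraries, 0.0559% were higher in both gel region libraries and 27.8% lower. These are shares of listed reads, and a shorter list leaves out more of the weak positions, so the ratios are read only against each other. Their median was 7.22, but it fell from 29.8 at 5 reads to 5.92 at 50 or more, since a position had to reach the lowest read number listed to be counted. Positions chosen by the band instead give the better scale. Over the band's 100 strongest positions, with a missing gel region peak counted as 0, the median ratio was 2.59 and the quartiles were 0.882 and 4.85. That choice was also made after the data were seen.

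**Figure D3:**
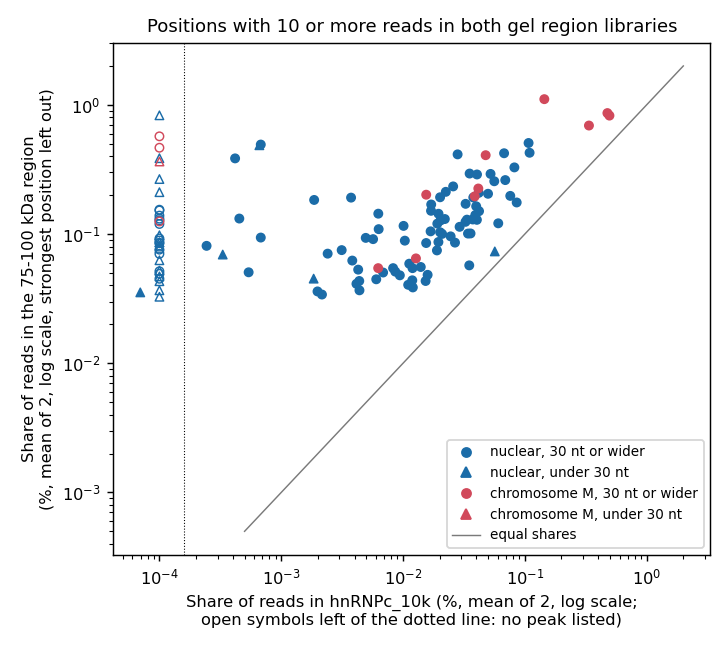
Mean share of listed reads in the gel region (strongest position left out) against that in hnRNPc_10k, both on log scales, for the positions with 10 or more reads in both gel region libraries; triangles are under 30 nt, red is chromosome M, and open symbols left of the dotted line have no band peak. Every filled point lies above the line of equal shares, which choosing positions by their gel region reads favours. Open triangles are the short positions that the band did not list.

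Chromosome M, the mitochondrial genome, gave several of the strongest members. It held 6.51% and 6.68% of gel region reads without the strongest position, against 2.04% and 2.02% in the band, and the groups did not overlap. Its leading positions were the band's as well. The position at chrM:1826-1912 had 267 and 262 reads in the gel region and 14259 and 13094 in the band, that at chrM:2209-2294 had 281 and 233 against 13777 and 14642, and that at chrM:1706-1777 had 262 and 177 against 10244 and 9051. Their share ratios were 1.67 to 2.06, within the quartiles of the band's 100 strongest positions. The 9 chromosome M positions among those 100 had a median ratio of 5.05, and the 91 nuclear ones 2.59. The strongest chromosome M position of the gel region was another one, chrM:2762-2895, with 399 and 297 reads against 4462 and 3838. Its ratio of 7.66 was above the upper quartile of the band's 100 strongest positions. It was picked by its gel region reads, which favours a high ratio. Among positions of 50 or more reads in both gel region libraries and listed in both band libraries, the quartiles were 4.45 and 9.65. The ratio of 7.66 lies between these, and those of the other 3 lie below. The position chrM:2762-2895 came first on chromosome M in both gel region libraries, and behind the other 3 in both band libraries.

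Some mitochondrial positions were listed on 1 side only. The positions at chrM:2405-2448 (162 and 129 reads), chrM:2506-2556 (260 and 116) and chrM:2054-2069 (123 and 104) had no band peak. The first of these was listed in the other gel regions at 186 and 198 reads in Background_100-150kDa, 165 and 147 in Background_50-75kDa, and 144 in replicate 1 alone of Background_150-250kDa. RBFOX2_10k listed it at 4475 and 4522 reads. The second was listed in all 3 other gel regions, at 79 to 167 reads, and the last in none of them. In contrast, a strong position of the band, chrM:3122-3182, had 7028 and 6264 reads there and no peak in the gel region. All of these lie in 1 gene, which is deeply covered in the band. Whether reads are missing at the places without a peak was not tested, since the lists hold peaks only.

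Among nuclear positions of 30 nt or more, 3 of 70 to 73 nt led by the lower of their read numbers. The position at chr6:52860641-52860713 on the plus strand spans 73 nt and had 168 and 146 reads in the gel region and 3114 and 3048 in the band, a ratio of 4.72. This lies within the quartiles of the band's 100 strongest positions. The neighbouring gel regions listed it too, at 62 and 114 reads in Background_100-150kDa, 139 and 128 in Background_150-250kDa and 199 and 172 in Background_50-75kDa. On chromosome 14, 2 positions of 70 and 71 nt had far higher ratios. The position at chr14:50329499-50329568 on the minus strand had 178 and 132 reads in the gel region and 17 and 22 in the band, a ratio of 725. The one at chr14:50053297-50053367 on the plus strand had 135 and 106 against 10 and 14, a ratio of 921. At both, the raw read number was higher in the gel region than in the far longer band lists, in every library. This was not particular to the 75-100 kDa region. Background_150-250kDa listed them at 117 and 184 reads and at 102 and 80 reads, also above the band. The 2 adjacent gel regions listed fewer. Background_100-150kDa had 23 and 18 reads at the first and 15 and 16 at the second. Background_50-75kDa had no peak at the first, and 10 reads in replicate 2 alone at the second. RBFOX2_10k listed more reads at both, 1813 and 970 at the first and 1217 and 700 at the second.

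Short positions differed from wider ones in their overlap with the band. Under 30 nt wide and with 10 or more reads in both gel region libraries, there were 22, of 11 to 29 nt. This width limit was set after the values were seen. Of these, 5 were listed in at least 1 band library and 17 in neither, the strongest position among them. At 20 or more reads, 10 of 13 short positions were in no band library, against 12 of 75 wider ones. All 12 of these wider ones lay in genes of many band reads, on chromosomes X, 11 and M. Most of the 10 short ones lay in other genes. A wider position also meets an overlap of 1 nt more easily. Whether width or gene goes with the difference was not tested.

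After the strongest position, the leading short position was chr11:94292174-94292190 on the minus strand, 17 nt wide. It had 265 and 246 reads in the gel region and none listed in the band, and RBFOX2_10k listed it at 84 and 75 reads. A position of 20 nt at chr1:66429524-66429543 had 128 and 163 reads in the gel region and 28 and 10 in the band. That one was also strong in other gel regions, with 301 and 380 reads in Background_150-250kDa and 107 and 81 in Background_100-150kDa, and weaker in Background_50-75kDa, with 16 and 42. Positions of 25 nt at chr15:61786321-61786345 (95 and 134 reads), 17 nt at chr10:119082049-119082065 (69 and 90) and 18 nt at chr12:31878214-31878231 (52 and 73), all on the minus strand, had no band peak. All 3 were listed in RBFOX2_10k, at 26 and 15, 12 and 15, and 8 and 16 reads.

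RBFOX2_10k listed many of the short positions. Over all 22, its share was close to that of strong positions in general. Among the short ones that the band lacked, it listed more than any other group compared. It listed 15 of the 22 short positions and 85 of all 131 positions with 10 or more reads. Of the 17 short ones that the band lacked, it listed 11, and 6 were in neither. Of the 18 wider ones that the band lacked, it listed 7. Of the same 17 short ones, hnRNPA1_50k_noPAGE listed 6, the next most of any group, and the other gel regions 3 or 4. At those 11, the summed RBFOX2_10k reads were 0.143 to 2.65 times the summed gel region reads, with a median of 0.192. Of the 35 positions with 10 or more reads that the band lacked, short or wide, RBFOX2_10k listed 18 (51.4%). Background_50-75kDa listed 16, hnRNPA1_50k_noPAGE 15, Background_100-150kDa 14, and Background_150-250kDa and hnRNPA1_50k_lowRNase 13 each. Of all 131 positions, these groups listed 94, 98, 86, 81 and 92 in that order. Their lists differ greatly in length: Background_50-75kDa has 452 and 463 peaks, RBFOX2_10k 140539 and 167449, and hnRNPA1_50k_noPAGE 499537 and 523402. The noUV_hnRNPc group, the hnRNP C libraries titled as made without ultraviolet light, listed 8 of the 35 and 79 of all 131. Like the hnRNPA1 groups, it was made from more cells and with more RNase than the gel region. RBFOX2_10k was compared because of the strongest position, and so after the data were seen. Short positions also differed between replicates in 1 respect: 13 of 22 had more reads in replicate 2, as the strongest position did, against 22 of 109 wider ones.

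One pair of short positions carried the same numbers. The positions at chr9:36233374-36233384 and chr9:36256650-36256664, of 11 and 15 nt in 1 gene, each had 21 reads in replicate 1, 30 in replicate 2, and 5 in both RBFOX2_10k libraries. Whether the same reads were counted at both places was not tested.

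**Figure D4:**
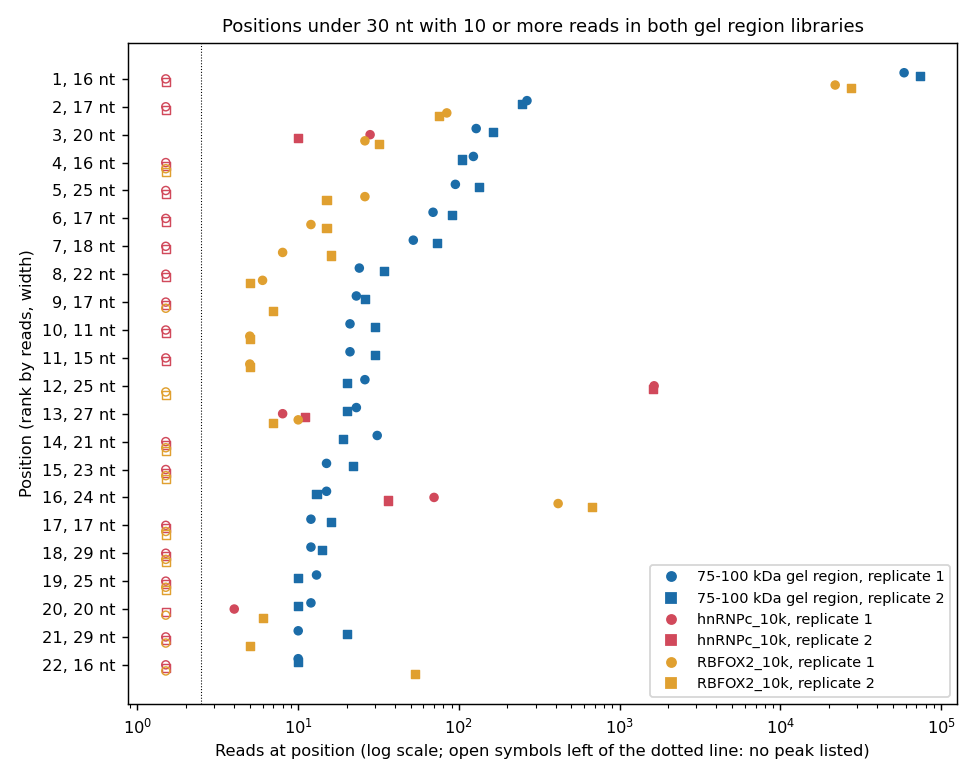
Read number on a log scale at the 22 positions under 30 nt with 10 or more reads in both gel region libraries, ordered by reads, in the gel region (blue), hnRNPc_10k (red) and RBFOX2_10k (orange); circles are replicate 1 and squares replicate 2. Open symbols left of the dotted line mean no listed peak: 17 of 22 have none in either hnRNPc_10k library, and 15 of 22 have one in RBFOX2_10k.

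Of the genes of the gel region, 97.7% and 97.2% had a peak in either hnRNPc_10k library. The band lists are so long that they name 13655 of the 13778 genes listed in any of the 4 libraries. The band itself supplies most of that set. It therefore cannot show whether 97.7% and 97.2% are more than for genes in general. Against band lists shortened to the length of the gel region lists it was 36.2%. The 2 gel region libraries shared 1081 genes, which is 36.2% of those of replicate 1 and 48.6% of those of replicate 2, and 10 of these had no band peak. Genes with many band peaks were listed most often. Of the genes in both band libraries, 396 had 100 or more band peaks on average and 64.9% of these were in both gel region libraries. For the 3629 genes with fewer than 5 band peaks it was 0.937%. A gene with many band peaks offers more places where a gel region peak can fall, so these shares are a description.

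With the strongest position counted, the share of reads was higher in both gel region libraries than in both band libraries for 146 of 13778 genes (1.06%) and lower for 9887 (71.8%), with a gene that has no peak counted as 0. Leaving that position out changed the count to 509 genes (3.69%) higher and 8296 (60.2%) lower. Among the 1065 genes listed in all 4 libraries, 494 (46.4%) were higher and 237 (22.3%) lower without it. Each count describes 2 libraries against 2 and has no test.

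The leading gene after ENSG00000166748 was ENSG00000229807 on chromosome X, with 77 and 71 peaks, the most of any gene in each gel region library. It held 8.52% and 9.68% of gel region reads without the strongest position, against 1.97% and 2.01% in the band. A chromosome M gene, which holds the mitochondrial positions named above, followed with 5.02% and 5.12% against 1.73% and 1.76%. A chromosome 11 gene with 30 peaks in each library held 2.67% and 3.10% against 0.515% and 0.502%, and a second chromosome X gene 1.72% and 1.77% against 0.426% and 0.419%. In each of these genes, both gel region values lay above both band values. Their share ratios were 2.91 to 5.68. For single positions, the band's 100 strongest had quartiles of 0.882 and 4.85. The genes were picked for their high gel region reads, so the choice favoured this direction.

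Their band reads were concentrated. ENSG00000229807 averaged 1030 and 1088 reads per position in the band, at 55 and 53 positions, and 57.3 and 41.5 in the gel region, at 56 and 60. The genes with the most band peaks were unlike it. ENSG00000267374 on chromosome 18 had 659 and 670 band peaks with 13.5 and 14.3 reads per position, and 14 and 7 gel region peaks. Its share was 0.199% and 0.117% in the gel region against 0.294% and 0.314% in the band. ENSG00000158321 on chromosome 7 had 617 and 619 band peaks with 9.46 and 9.45 reads per position. Its share was 0.0744% and 0.124% in the gel region against 0.197% and 0.198% in the band. Of the 20 genes with the most band peaks, 17 had a lower share in both gel region libraries and 1 a higher share in both, with a median ratio of 0.623. Over all genes 60.2% were lower, and over genes listed in all 4 libraries 22.3%. The 20 genes were picked for their many band peaks, so the choice favoured a lower gel region share. Their median was 10.4 and 10.8 band reads per position. This list was drawn after the values were seen.

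Last, the whole lists were set against the other groups at equal length, which was chosen after the data were seen. Each library with at least 100000 peaks was reduced to its 100000 peaks of smallest p, which left 49 libraries in 25 groups. Of these groups, only hnRNPc_10k and RBFOX2_10k share the labelled cell number and RNase amount of the gel region. Over all gel region peaks, hnRNPc_10k overlapped 15.2% and 14.5% (7.90% and 7.62% after moving) and ranked 8 of the 25. The highest was hnRNPc_50k_noPAGE, the hnRNP C libraries made without the gel step, with 17.6% and 15.5%. RBFOX2_10k overlapped 8.86% and 8.99% and hnRNPI_50k_lowRNase, the lowest, 5.53% and 5.72%. For gel region peaks of 10 or more reads, hnRNPc_10k overlapped 64.4% and 63.2% (28.9% and 29.7% after moving). Its mean was the highest of the 25 groups by under 1 percentage point: hnRNPc_50k_noPAGE_RecJ, made without the gel step and with added RecJ digestion, overlapped 64.6% and 61.5%, and was higher for replicate 1. RBFOX2_10k overlapped 46.9% and 48.9%. The libraries of another protein, hnRNPA1_50k_noPAGE, overlapped 59.4% and 59.2%. That is above some hnRNP C groups, such as noUV_hnRNPc with 54.7% and 54.3% and hnRNPc_50k_mediumRNase with 51.0% and 50.3%. Over all gel region peaks, hnRNPA1_50k_noPAGE ranked 6, above hnRNPc_10k, with 15.2% and 15.5%. All hnRNP C groups were made with the antibody that was used for the gel region, and these ranks have no test.

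**Figure D5:**
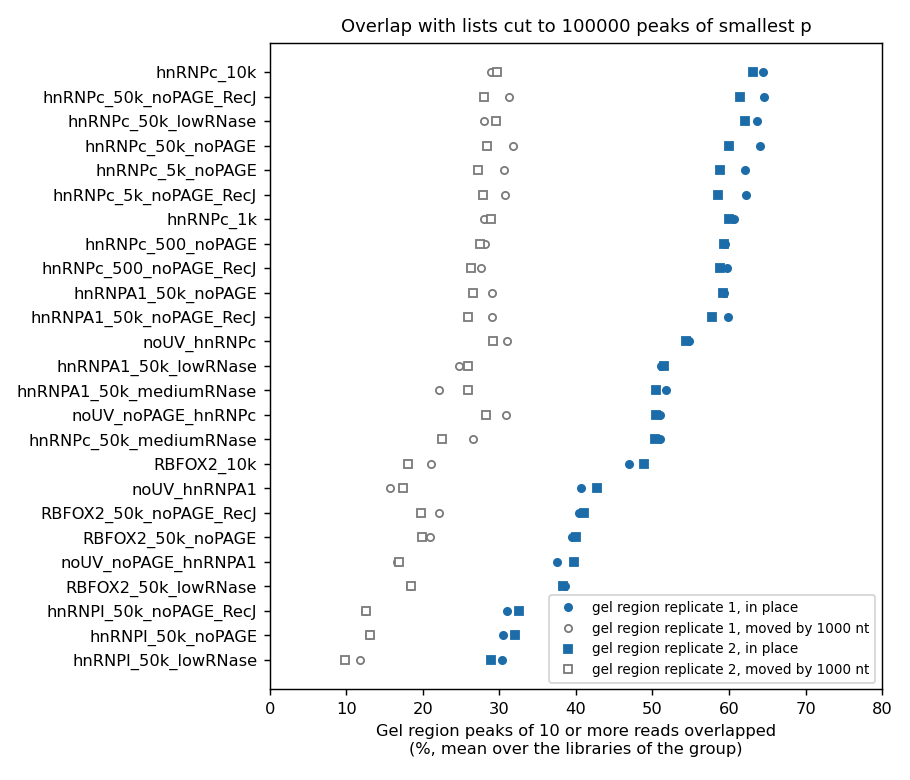
Percent of gel region peaks of 10 or more reads overlapped by lists reduced to 100000 peaks each, for 25 groups, as the mean over the libraries of the group; filled symbols are in place and open symbols moved by 1000 nt, circles replicate 1 and squares replicate 2. Groups are ordered by the mean of both gel region replicates: hnRNPc_10k is first with 64.4% and 63.2%, hnRNPc_50k_noPAGE_RecJ next with 64.6% and 61.5%, and RBFOX2_10k lies lower with 46.9% and 48.9%.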

How the data were processed

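Each library has 1 deposited peak list. Peaks were called by CLIPper, per the file names. The submitters' processing notes name hg19, STAR 2.7.3a, UMI-tools 1.0.1 and bcl2fastq. The authors' deposited lists give a p-value per peak, with no adjustment stated, and a read count as the last number of the peak name, whose meaning is not stated. Sequencing depth is unknown.

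Positions, overlaps and shares of listed reads were computed with Python 3.11.15 and pandas 2.3.3, and the scripts were tested on simulated data. Groups were compared by exact two-sided permutation tests over libraries. Starts were made 1-based. Positions, genes and lists were chosen with earlier results of these data known. Named positions and genes are those with the highest read numbers, most peaks, or most reads outside the band. Genes of many band peaks and the pairs on chromosomes 9 and X were added after their values were seen. The gene table at hand matched 0 of 13778 Ensembl identifiers, so the files' identifiers are not paired with names, planned gene lists were not applied, and no sequence is printed. Alternatives are in the closing section.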

Additional observations from a re-analysis of the deposited data

How the results depend on the processing

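The 5 differences between groups kept their direction in 47 of 48 alternatives. The exception is the median width, which was 1 nt once peaks were joined into positions. Against band lists shortened to equal length by smallest p, the difference in median width went from -16 to -40.5 nt and that in median reads from -3 to -41.5. With replicate numbers as a block, each value was the same and the exact permutation p was 0.5, the smallest that 2 pairs allow; the labels do not say that equal numbers mark paired samples. The overlap of gel region peaks with hnRNPc_10k, 25.1%, was 48.2% for peaks with p below 1e-05, 24.9% without chromosome M, 18.2% when at least 50% of the width had to overlap and 7.72% against band lists shortened to equal length; leaving out 1 library gave 19.0% to 25.2%, the lowest without hnRNPc_10k replicate 1. The overlap of band peaks by the gel region, 0.807%, was 0.732%, 0.472% and 13.8% at the p limit, at 50% of the width and for shortened band lists, and 0.367% to 0.828% with 1 library left out, the lowest without gel region replicate 1. Overlap between the gel region replicates, 5.05%, was 31.6% at the p limit. Genes of the gel region with a band peak, 97.4%, were 92.6% at the p limit, 36.2% against shortened lists, and 96.3% to 97.7% with 1 library left out. The number of genes with a higher share, 146, was 509 without the strongest position and 80 when the share had to be at least 2 times higher. With 1 library left out it ran from 156 to 1153: 702 without gel region replicate 1 and 1153 without replicate 2. With fewer libraries a gene has fewer values to meet, so this count could only rise or stay. Leaving out the strongest position raises the gel region share of every other gene. The cause of the other changes was not tested. Leaving out 1 library and joining positions regardless of gene were added after seeing the data for the gene count and for the read shares. Replicate overlap has no value with 1 gel region library left out.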
